A study of Mus musculus with 6 samples.

Results

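The genes described here are 33 genes of the endoplasmic reticulum (ER), the compartment in which secreted and membrane proteins are folded. They were taken as a list by function, with no measured value in the rule, although earlier results of these data were known when the list was drawn up: 11 chaperones and co-chaperones, 4 disulfide isomerases, 8 genes of ER-associated degradation, 4 stress sensors and regulators including Xbp1, and 6 genes of the translocon and signal peptidase. All 33 were on the array and all 33 were among the 12994 genes tested. The arrays came from C57BL/6 mice, 14 days old, whose small-intestinal epithelium had been shaken off the lamina propria in EDTA. The replacement group (3 arrays) is labelled Ecadflox/Ncad;Vil-Cre, that is, a floxed E-cadherin allele over an N-cadherin allele with Cre driven by the villin promoter, which is active in gut epithelium and not in the underlying stroma. The control group (3 arrays) consisted of littermates positive for E-cadherin whose genotype is given only as control, so whether they carried Cre or the N-cadherin allele is not given. The labels do not say whether each array was a separate animal or a pool, so every p-value reflects the spread among these samples only, which may be technical.

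Proteins destined for secretion, for the lysosome or for the cell surface enter the ER through the Sec61 channel, lose their signal peptide, and are folded by chaperones and disulfide isomerases. Chains that fail to fold are returned to the cytosol for degradation. When unfolded protein builds up, the sensors Ire1 (gene Ern1), Perk (Eif2ak3) and Atf6 start the unfolded protein response, in which Xbp1 and cleaved Atf6 raise transcription of many of the genes listed here. In the intestine this response is best known from Paneth and goblet cells, which secrete large amounts of protein.

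A DNA element shared by several of these genes is the ER stress response element, ERSE, to which NF-Y and Atf6 or Xbp1 are known to bind. It was searched for as CCAAT and CCACG with any 9 bases between them, on both strands of the 250 bases before the transcription start, in RefSeq promoters of GRCm38.p6. A promoter was found for 27 of the 33 genes. The element was present in 9 of these 27 (33.3%), against 35 of all 27025 promoters (0.13%). The windows shown are those of the gene for the chaperone BiP (Hspa5), of Pdia6, which had the highest difference among the genes with the element, and of Derl3, Creld2 and Syvn1, which had the lowest. Herpud1 is shown for its ERSE-II, a shorter arrangement with its ends separated by a single base. Each is written 5′ to 3′ on the strand of the gene, and capitals mark the ends of the element.
Hspa5: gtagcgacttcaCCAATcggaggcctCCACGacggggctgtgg
Pdia6: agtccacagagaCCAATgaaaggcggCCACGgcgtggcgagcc
Syvn1: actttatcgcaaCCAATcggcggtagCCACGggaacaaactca
Creld2: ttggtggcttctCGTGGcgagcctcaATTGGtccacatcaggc
Derl3: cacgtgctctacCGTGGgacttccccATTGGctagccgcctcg
Herpud1: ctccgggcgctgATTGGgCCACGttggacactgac
In Creld2 and Derl3 the element lies on the opposite strand and reads as CGTGG, 9 bases, ATTGG. The windows lie at chr2:34772013-34772055 for Hspa5 (plus strand), chr12:17266479-17266521 for Pdia6 (plus), chr19:6046520-6046562 for Syvn1 (plus), chr15:88819508-88819550 for Creld2 (plus), chr10:75893230-75893272 for Derl3 (plus) and chr8:94386365-94386399 for Herpud1 (plus). The other genes with the element were Calr, Hsp90b1, Canx and Dnajc3. ERSE-II, searched for as ATTGG and CCACG with 1 base between them on both strands, was in Herpud1 alone of the 27 and in 10 of all promoters (0.037%). The XBP1 site TGACGTGG, whose last bases overlap an ERSE end read on the opposite strand, was in none of the 27 and in 163 of all promoters (0.603%). No gene of the list held both ERSE and ERSE-II.

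The values are linear probe set intensities scaled to a common mean on each array. On the 6 arrays, 55.1% to 61.8% of 45101 probe sets reached 16, the floor used here. Controls 2 and 3 differed far less than other pairs of 1 group: over the 5109 bright probe sets (200 or more), the log2 ratio between them had an SD of 0.115, against 0.347 to 0.564. The same SD over 18 hybridization controls, which are spiked in and carry no difference between samples, was 0.0824. They were therefore averaged and counted as 1 sample, which leaves n = 2 controls and n = 3 replacement samples. Cdh1, which encodes E-cadherin, read 2757, 2335 and 2204 on the control arrays and 1073, 1175 and 1357 on the replacement arrays. It fell by 1.06 (log2; SE 0.240, limma adjusted p = 0.0252), and where its probe set lies relative to the floxed part was not examined. Both Cdh2 probe sets, for N-cadherin, stayed under the floor on all 6 arrays (highest reading 13.5), and whether they read the introduced transcript is not stated in the labels. By Xist and Y-linked transcripts, control 1 and replacements 2 and 3 read as female and the other arrays as male. The classes are not clear-cut: Xist read 440 and 578 in replacements 2 and 3 against 2305 in control 1, and Eif2s3y 114 in replacement 1 against 410 and 418 in controls 2 and 3.

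None of the 33 genes passed the test (limma with Benjamini-Hochberg adjustment over all 12994 genes, adjusted p under 0.05). Over all genes 9.17% passed, 4.54% higher in the replacement cells and 4.63% lower. At an unadjusted p under 0.05 limma gave 2 genes higher, Sec61a1 and Ssr1, and 4 lower, Dnajb9, Sel1l, Herpud1 and Derl3. These are 18.2% of the list, where 24.4% of all genes lay past the same limit (11.5% higher, 12.9% lower). Control and replacement arrays did not overlap for 13 of the 33 (39.4%), 7 higher and 6 lower. Over all genes this share was 36.7%, with 17.8% higher and 18.8% lower, so the counts of the list lay near those of all genes. The differences (replacement minus control, log2 throughout) ran from -1.0 for Dnajb9 to 0.73 for Sec61a1, with 17 above 0 and 16 below. Their median was 0.01, beside -0.02 for all genes, and the median size without sign was 0.177, beside 0.328 for all genes. No gene of the list differed by more than 2-fold, as 10.3% of all genes did. For 22 of the 33 the 95% interval lay within 2-fold in either direction, so a larger change in these lies outside the interval. For the other 11 the interval reached beyond 2-fold.

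**Figure D1:**
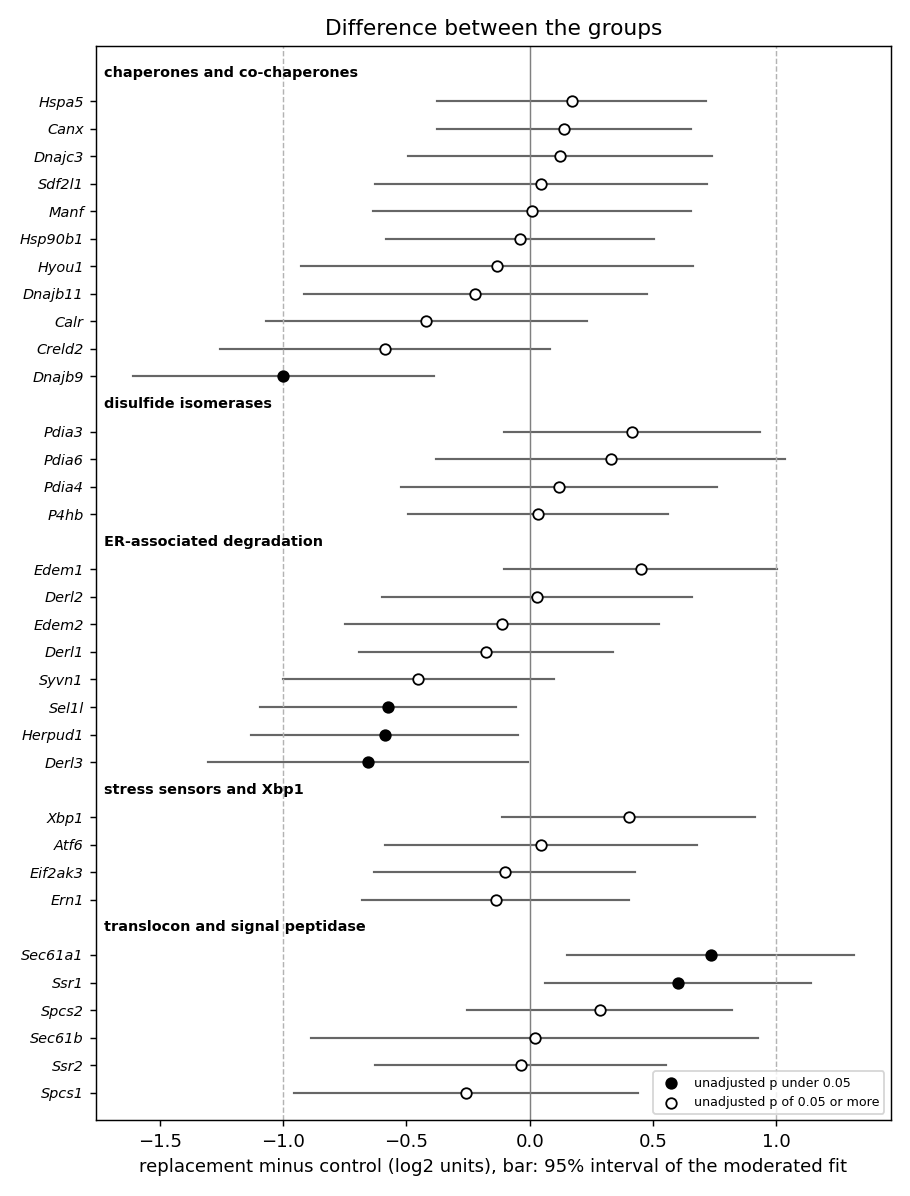
Difference between the replacement and control samples for each of the 33 genes, on a log2 scale, grouped by role, with 95% intervals from the moderated fit, dashed lines at 2-fold and filled points at an unadjusted p under 0.05 (n = 2 control and 3 replacement samples). The degradation genes lie mostly to the left of 0 and the translocon genes mostly to the right, and 6 intervals exclude 0, none of them after adjustment over all genes.

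Among the chaperones, the probe sets standing for Hspa5, Hsp90b1 and Canx had differences smaller than their standard errors. Hspa5, the Hsp70 chaperone BiP that also holds the stress sensors inactive, read 2055, 2648 and 2750 in the controls and 2531, 2497 and 2943 in the replacement samples. The groups overlapped, and the difference was 0.17 with a 95% interval of -0.38 to 0.72 (limma adjusted p = 0.729). Hsp90b1, the Hsp90 of the ER, differed by -0.04 and Canx, the membrane-bound lectin chaperone calnexin, by 0.14. For Canx all replacement arrays lay above the controls. Dimmer probe sets gave larger differences, 0.50 for Hsp90b1 and 0.59 for Canx, both without overlap. Neither passed (limma adjusted p over all probe sets = 0.345 and 0.285). Calr, the soluble lectin chaperone calreticulin, read 2260, 2492 and 2648 in the controls. Its replacement values were 2502, 1681 and 1391, so replacement 1 lay among the controls while the other two lay below them, and the difference was -0.42 (adjusted p = 0.427). All 3 Calr probe sets were below 0, from -0.62 to -0.42.

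Dnajb9, the co-chaperone ERdj4 that binds Ire1 and is a known Xbp1 target, had the largest difference of the list. It read 1444, 1472 and 1492 in the controls and 866, 835 and 543 in the replacement samples. All 3 replacement values lay below the narrow control range. The difference was -1.0 (SE 0.272, 95% interval -1.61 to -0.39), a 2.00-fold lower level, and limma's adjusted p of 0.0516 lay just beyond the threshold. It passed in 8 of 22 tested alternatives, with adjusted p from 0.0137 to 0.302 over them, and the difference was below 0 in each. Creld2, an ER protein induced by stress, read 351, 512 and 507 in the controls and 351, 305 and 209 in the replacement samples. Control 1 and replacement 1 were nearly equal there, and the difference of -0.59 did not pass (limma adjusted p = 0.265). The other 5 chaperones and co-chaperones, Hyou1, Dnajb11, Dnajc3, Sdf2l1 and Manf, lay between -0.22 and 0.12, with all adjusted p at 0.725 or above. The 3 Hyou1 probe sets ran from -0.13 to 0.45. The median over all 11 was -0.04.

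**Figure D2:**
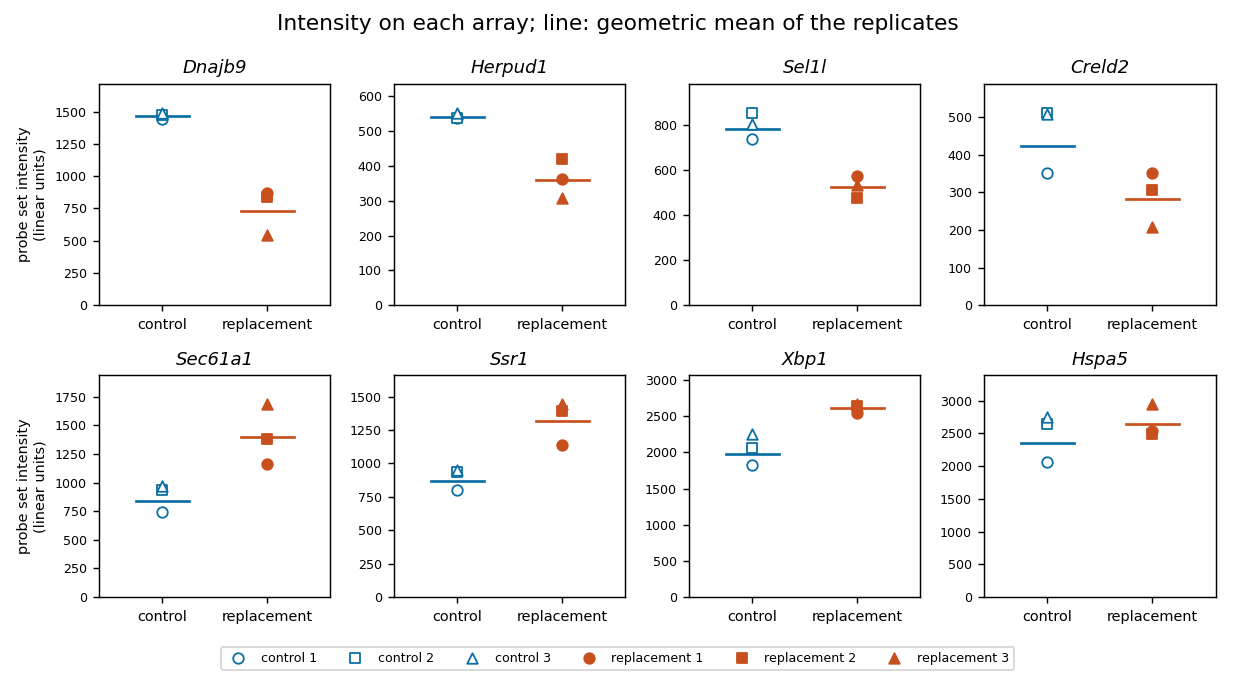
Probe set intensity (linear units, axes from 0) on each of the 6 arrays for 8 genes, a symbol per array, with lines at the geometric mean of the samples. For Dnajb9, Herpud1, Sel1l and Creld2 all replacement arrays lie below all control arrays, for Sec61a1, Ssr1 and Xbp1 above them, and for Hspa5 the groups overlap.

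The disulfide isomerases, which form and rearrange disulfide bonds in newly made proteins, all had differences above 0, with a median of 0.22. Pdia3, which works with calnexin and calreticulin, read 1745, 1911 and 2073 in the controls and 2272, 2705 and 2488 in the replacement samples. The groups did not overlap, and the difference was 0.41 (SE 0.231, limma adjusted p = 0.314). Its second probe set, reading 26.0 to 61.9, lay on the other side at -0.61. Pdia6 differed by 0.33, Pdia4 by 0.12 and P4hb, which read 3739 to 4688 on the 6 arrays, by 0.03. Pdia6 rests on control 1: it read 336 there and 530 and 580 on the other control arrays, beside 397, 649 and 619 in the replacement samples. Without control 1 the difference of Pdia6 was -0.03, and its second probe set, reading 11.6 to 25.5, gave -0.41. Pdia4 also read lowest in control 1 among the controls, at 263 against 392 and 374, beside 269, 360 and 424 in the replacement samples. Its difference was 0.57 within the female class, which holds control 1, and -0.51 within the male class.

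ER-associated degradation was the role with the lowest median, -0.31, with 6 of its 8 genes below 0. These genes form or serve the channel that takes misfolded proteins out of the ER and marks them with ubiquitin. Sel1l, the scaffold of the ubiquitin ligase complex, read 739, 857 and 807 in the controls and 573, 475 and 536 in the replacement samples, without overlap. Its difference was -0.58 (SE 0.231, limma adjusted p = 0.160). Of its 5 kept probe sets 3 were below 0 and 2 above, over a range of -0.58 to 0.29. Herpud1, a stress-induced membrane protein of the same complex, read 537, 537 and 554 in the controls and 361, 421 and 307 in the replacement samples. It differed by -0.59 (SE 0.241, limma adjusted p = 0.167), and its second probe set lay on the same side at -0.64. Derl3, a derlin found mainly in secretory cells, gave the lowest readings of the list. It read 64.7, 64.9 and 63.9 in the controls and 50.8, 47.0 and 28.9 in the replacement samples. The replacement values were again all below the controls, with a difference of -0.65 (SE 0.289, limma adjusted p = 0.202). Syvn1, the ubiquitin ligase Hrd1 that Sel1l anchors, differed by -0.45 with overlapping groups (adjusted p = 0.299).

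The other degradation genes were mixed in direction. Edem1, which trims mannose from misfolded glycoproteins and so marks them for removal, read 306, 414 and 423 in the controls and 441, 517 and 512 in the replacement samples. It differed by 0.45 (limma adjusted p = 0.305), and its second probe set gave -0.00028. Its relative Edem2 differed by -0.11. Derl2 differed by 0.03, and the probe set standing for Derl1 by -0.18. The 4 Derl1 probe sets disagreed in sign, from -0.23 to 0.41.

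For none of the 3 sensors did the probe set standing for the gene differ beyond its standard error. By these sets Ern1 differed by -0.14, Eif2ak3 by -0.10 and Atf6 by 0.05, and the intervals of all 3 lay within 2-fold. The 3 kept Ern1 probe sets ran from -0.14 to 0.39, and the 3 kept Atf6 probe sets from -0.12 to 0.58. The highest of each was dim, reading 15.6 to 27.0 for Ern1 and 10.9 to 32.8 for Atf6. Neither passed (limma adjusted p over all probe sets = 0.482 and 0.333). Xbp1, whose messenger RNA is spliced by Ire1 to give the active transcription factor, read 1820, 2067 and 2251 in the controls. In the replacement samples it read 2540, 2648 and 2664, all above the controls. The difference was 0.40 (SE 0.228, limma adjusted p = 0.321), and all 4 Xbp1 probe sets were above 0, from 0.10 to 0.40. Spliced and unspliced Xbp1 were not told apart here. Every replacement array was thus above the controls for Xbp1 and below them for its known target Dnajb9, and neither difference passed.

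**Figure D3:**
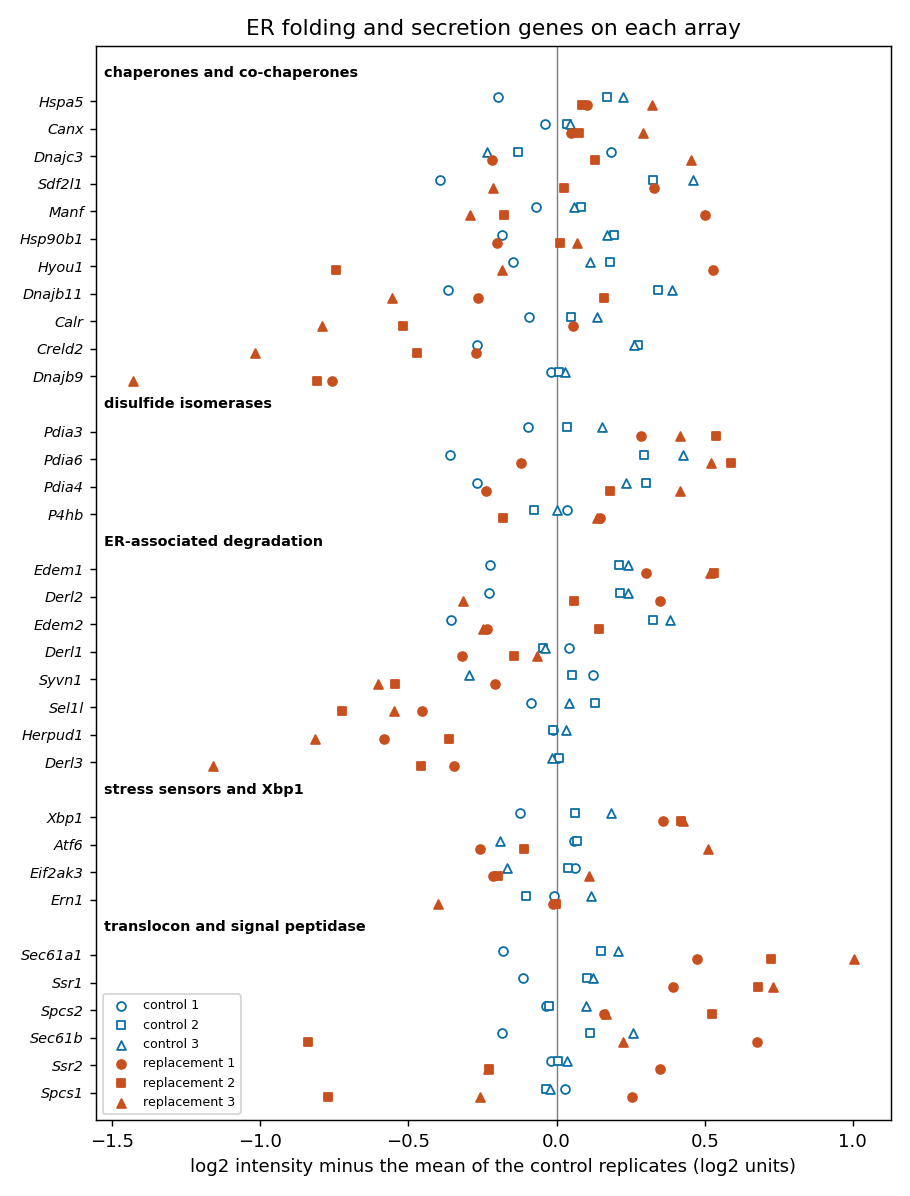
Each gene's log2 intensity on each array minus the mean of the control samples (x axis), a row per gene grouped by role, with open symbols for controls and filled ones for replacement samples. Control 1 (open circles) is lower than controls 2 and 3 in most rows. The groups do not overlap in 7 rows with higher and 6 with lower replacement values. Among these are Dnajb9, Sel1l, Herpud1, Derl3, Sec61a1 and Ssr1, the rows with an unadjusted limma p under 0.05.

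The translocon genes held the largest differences above 0. Sec61a1, the channel-forming subunit through which new chains enter the ER, read 741, 932 and 969 in the controls. In the replacement samples it read 1165, 1385 and 1684, with no overlap. The difference was 0.73 (SE 0.259, 95% interval 0.15 to 1.32), a 1.66-fold higher level, with a limma adjusted p of 0.117. Of its 6 probe sets 5 were above 0, up to 1.17, and the other gave -0.32. Ssr1, the alpha subunit of the translocon-associated protein complex, read 803, 934 and 947 in the controls and 1141, 1394 and 1442 in the replacement samples. It differed by 0.60 (SE 0.239, limma adjusted p = 0.155). All 4 Ssr1 probe sets were above 0, the highest at 0.98 with an adjusted p of 0.0719 over all probe sets. The signal peptidase subunit Spcs2 read 720, 725 and 791 in the controls and 825, 1062 and 829 in the replacement samples, a difference of 0.28.

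The list's other 3 genes of this role had differences near or below 0. Sec61b, the beta subunit of the channel, read 908, 1115 and 1233 in the controls and 1650, 577 and 1205 in the replacement samples. Its 3 replacement values spanned the whole control range, and the difference was 0.02 with the widest SE of the list, 0.403. Ssr2 differed by -0.04 and Spcs1 by -0.26. Replacement 1 had the highest reading of all 6 arrays in Sec61b, Ssr2 and Spcs1, and the lowest of the 3 replacement readings in Sec61a1, Ssr1 and Spcs2. The median over the 6 translocon and peptidase genes was 0.15. Related genes outside the list, named after their values were seen, were also mixed. The signal peptidase genes Spcs3, Sec11c and Sec11a differed by 0.90, 0.43 and 0.18, and Ssr3 and Ssr4 by 0.26 and -0.20. Sec62, Sec63 and Sec61a2 differed by -0.59, 0.32 and -0.04, and for Sec62 all replacement arrays lay below the controls. None of them passed (the smallest limma adjusted p was 0.114, for Spcs3).

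**Figure D4:**
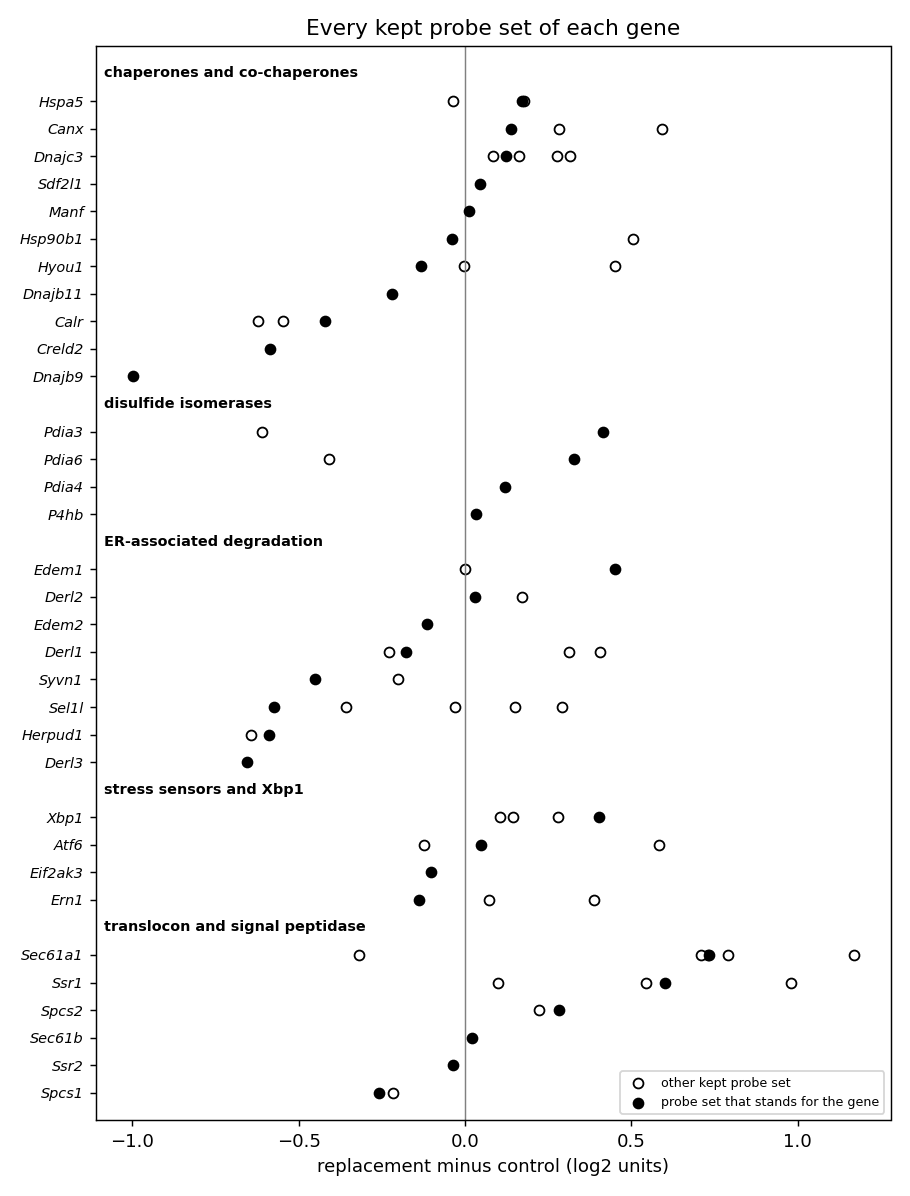
Difference between replacement and control samples for every kept probe set of the 33 genes, on a log2 scale, with the probe set that stands for the gene filled. Probe sets of Ssr1, Xbp1, Calr and Herpud1 lie on the same side of 0, and those of Sel1l, Derl1 and Pdia3 lie on both sides.

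The list was covered by 83 probe sets, of which 76 were kept, and 0 of the 76 passed the test run over all 26630 kept probe sets, where 4.04% passed. At an unadjusted p under 0.05 the same limma fit gave 5 higher and 4 lower, or 9 of 76, beside 19.5% of all kept probe sets. For 21 genes more than 1 probe set was kept, and in 11 of these the sets differed in sign. Probe sets of a gene share the sample and read different parts or forms of its transcript, so they are not replicates.

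The genes with the stress response element did not share a direction. Over the 9 with ERSE, the differences ran from -0.65 for Derl3 to 0.33 for Pdia6, with a median of -0.04. The median of the 18 genes with a promoter and no match was 0.03. The element shown above for Hspa5 and the one shown for Creld2 differ in strand and distance from the start, and the genes themselves differed by 0.17 and -0.59. Syvn1, with the element on the same strand as in Hspa5, differed by -0.45. A relation of strand or distance to the differences was not tested.

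Control 1 was lower than the other controls for much of the list. It lay below both in 23 of the 33 genes (69.7%), beside 39.4% of all genes and 46.9% of the 8767 genes whose mean reading was at least that of Derl3. Among the chaperones this was so for 10 of 11. It was not particular to the list: control 1 was also below both in 65 of 111 other ER genes (58.6%). The groups of these genes varied, with 16 of 18 genes of N-glycosylation and 12 of 17 other folding enzymes. At the other end were 11 of 23 genes of export to the Golgi, 4 of 10 further transcription factors and proteases and 0 of 9 Perk branch genes. The median of control 1 minus the mean of controls 2 and 3 was -0.18 over the list and 0.02 over all genes. The gap was widest for Sdf2l1 (-0.79), Dnajb11 (-0.73), Pdia6 (-0.72) and Edem2 (-0.71), so that the spread between controls was as large as most differences between the groups. Without control 1 the list's median was -0.15. Control 1 also stood apart in transcripts of other cells. Its summed intensity over 9 fibroblast markers was 1292, against 220 and 229 in the other controls and 412 to 539 in the replacement samples, and its endothelial sum was 326 against 76.4 to 170 on the other arrays. The part of these cells in the differences was not tested.

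The groups also differed in sex class, and the classes did not give the same picture for every gene. Within the female class (control 1 against replacements 2 and 3) the median difference of the list was 0.10, beside -0.05 for all genes. Within the male class (controls 2 and 3 against replacement 1) it was -0.04, beside 0.005 for all genes. In 15 genes of the list the classes had opposite signs. The share of all genes with opposite signs was not counted, so this number has no background beside it. The difference between the classes was tested for all genes with an interaction term, and limma called 0 of 12994 genes, with 1020 at an unadjusted p under 0.05. Pdia6 was the only gene of the list among these, at 0.91 in the female and -0.48 in the male class (unadjusted p = 0.0183, adjusted p = 0.586). Dnajb9 was below 0 in both, at -1.10 and -0.78. Sec61a1 was above 0 in both, at 1.04 and 0.30. The male class holds 1 replacement sample and 1 merged control, so its value has no error of its own. Pancreatic acinar transcripts followed the same split: over 8 markers the sum was 2299 in control 1, 5223 in replacement 2 and 3765 in replacement 3, against 446 to 721 on the other arrays. Acinar cells are rich in ER, and the part of such RNA in these values was not tested.

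Around the list, 111 further genes of the same compartment and its stress response were measured. Of these 3 rose and 2 fell (4.50%, beside 9.17% of all genes), and their median difference was 0.05. Among 17 other folding enzymes of the ER lumen 2 rose and 1 fell (17.6%), a share that rests on few genes. Ero1b, an oxidase that recharges disulfide isomerases, read 242, 182 and 184 in the controls and 62.4, 59.2 and 64.5 in the replacement samples. It fell by 1.76 (SE 0.239, limma adjusted p = 0.00231), although its 3 probe sets ran from -1.76 to -0.02 and it lost the call under their mean. The isomerase Txndc5 rose by 1.16 (limma adjusted p = 0.0216), from 275 to 371 in the controls to 619 to 863. Its 2 probe sets gave 0.48 and 1.16, and their mean did not pass (0.82, limma adjusted p = 0.0506). Pdia5, a further isomerase, rose by 1.67 (limma adjusted p = 0.0344), and it read 21.4 in control 1 against 68.9 and 55.8 in the other controls. Without control 1 its difference was 0.90 and did not pass (limma adjusted p = 0.263).

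The Perk branch of the stress response, which acts through Atf4, had 9 measured genes, of which 1 rose and 1 fell. This is 22.2% of a short list, beside 9.17% of all genes. Asns, the asparagine synthetase gene that Atf4 is known to induce, read 188, 159 and 145 in the controls and 480, 583 and 508 in the replacement samples. It rose by 1.63, or 3.09-fold (SE 0.239, limma adjusted p = 0.00338). Ddit3, which encodes the stress-induced transcription factor Chop, read 435, 353 and 379 in the controls and 162, 56.6 and 83.7 in the replacement samples. It fell by 2.12, or 4.36-fold (SE 0.395, limma adjusted p = 0.0111), opposite to Asns on the same arrays.

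In the other groups of ER genes no gene passed. These were 16 further translocation genes (median 0.18), 18 genes of N-glycosylation and glycan trimming (0.26), 18 further degradation genes (-0.05), 10 further ER transcription factors and proteases (median -0.00) and 23 genes of export to the Golgi (-0.14). The gene with the smallest p in each was Srp72 of the signal recognition particle at 0.70 (limma adjusted p = 0.0923), Dpagt1, the first enzyme of N-glycan assembly, at 0.66 (0.119), the degradation ATPase Vcp at 0.54 (0.241), the Atf6-cleaving protease Mbtps2 at 0.45 (0.357) and the cargo receptor Lman1 at -0.65 (0.127). Outside the ER, 2 of 10 cytosolic heat shock genes rose (20.0%, beside 9.17% of all genes). These were Hspa1b, an inducible Hsp70, by 1.12 and its co-chaperone Bag3 by 1.37 (limma adjusted p = 0.0154 and 0.0152). The list was mixed, with 7 genes above 0 and 3 below. Hspa1a, reading 29.8 to 49.1, differed by 0.06 and Dnaja1 by -0.58 (limma adjusted p = 0.924 and 0.146). Of the 7 genes that passed here, all 7 lost the call without control 1. The merged controls 2 and 3 were then the only control sample, and the spread came from the replacement samples. All 7 were also lost without controls 2 and 3. Without replacement 3, 5 were lost (Txndc5, Pdia5, Ddit3, Bag3 and Hspa1b), and without replacement 2, 3 were lost (Txndc5, Pdia5 and Hspa1b). Pdia5 alone lost its call without control 3 and without replacement 1. With no filter on low readings 6 of the 7 were lost (all but Hspa1b), and with a floor of 32, 4 were lost (Txndc5, Pdia5, Ddit3 and Bag3).

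**Figure D5:**
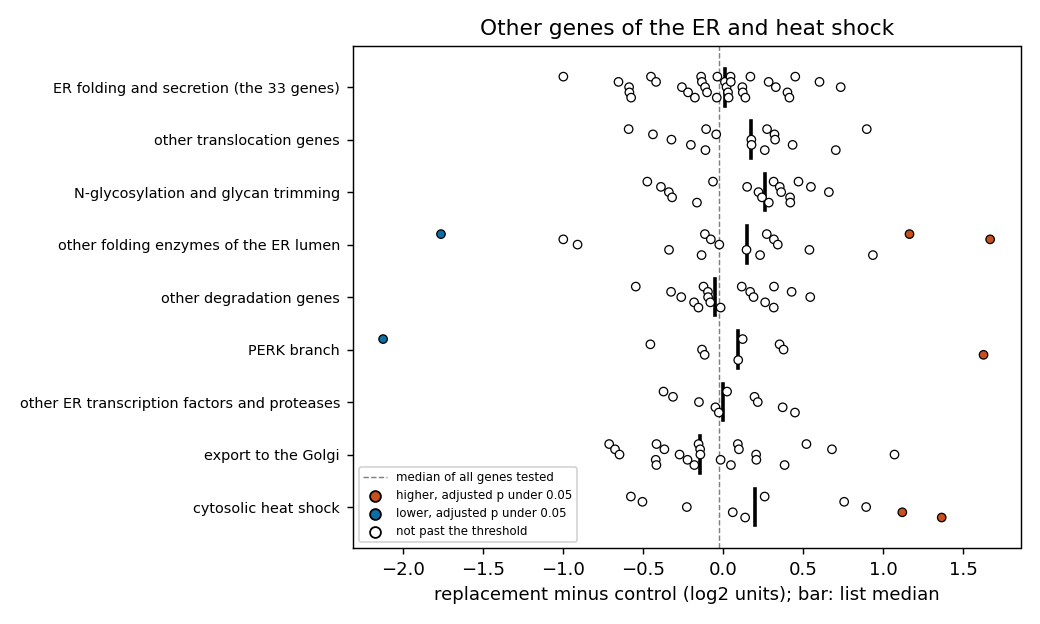
Differences between replacement and control samples, on a log2 scale, for the 33 genes (top row) and the other groups of ER and heat shock genes, a point per gene, with a bar at each median, a dashed line at the median of all genes and genes past an adjusted p of 0.05 filled. The medians lie between -0.14 and 0.26, and the filled points are Ero1b, Txndc5, Pdia5, Asns, Ddit3, Hspa1b and Bag3.

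Markers of secretory and other cells were summed on each array, since fewer cells of a type and less RNA per cell cannot be told apart in such bulk samples. Goblet cell markers (9 on the array) summed to 13880 to 18685 in the controls and 11189 to 21289 in the replacement samples, and 5 Paneth cell markers to 2795 to 6863 and 2673 to 4234. Both sums overlapped between the groups. The Paneth sum hid opposite moves: Mmp7 differed by 1.30 and Pla2g2a by -1.36 (limma adjusted p = 0.0445 and 0.0473). No probe set was paired with Defa5, Defa17, Defa24 or Defa29 alone, so these listed defensin genes are not in the sum. Whether probe sets shared by several genes read them was not examined. Enteroendocrine markers did not overlap: their 10 genes summed to 2871 to 3377 in the controls and 1425 to 2339 in the replacement samples. The hormone genes Gip (928 to 1631 and 159 to 691) and Sct (486 to 685 and 84.4 to 287) were the 2 that passed as lower. In all, 6 of the 10 had differences below 0, 4 of them without overlap, among these Chga and Neurod1 at -0.47 and -0.42. Chgb, Tac1, Tph1 and Neurog3 had differences above 0. Enterocyte markers (10 genes) summed to 32771 to 35021 and 25318 to 35538, and general epithelial markers (8 genes) to 15562 to 16341 and 20343 to 24151. The epithelial sums did not overlap between the groups, and of the 8 genes 2 passed as higher and 1, Cdh1, as lower. The sum of the epithelial markers was thus high on every array, which does not hold for each marker by itself. Tuft cell markers (6 genes) had low sums, 91.5 to 102 and 110 to 137, without overlap, and Il25 was under 16 on every array. Myeloid markers (9 genes) summed to 2737 to 3059 in the controls and 1220 to 1884 in the replacement samples, with S100a8 and S100a9 under 16 on every array. Most of that sum was the Csf1r probe set (2427 to 2504 and 738 to 1271), while Cd14 was 6.23-fold higher in the replacement samples and Lyz2 and Adgre1 overlapped, so the list had no common direction. The sum of B and plasma cell markers, 515 to 608 and 1271 to 1817, was nearly all Sdc1, which epithelium also makes, and Cd79b and Pou2af1 were under 16 on every array. Of 9 T cell markers 6 were under 16 on every array. The part of these cell types in the values of the ER genes was not tested.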

How the data were processed

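RNA of isolated small-intestinal epithelium was measured on 6 Affymetrix arrays. The deposited values are linear intensity per probe set, and the values show the same trimmed mean on every array, a scaling done before deposit. The submitters' processing notes name GCRMA and limma, but the deposited intensity is not on GCRMA's log2 scale and the method of summary is not given in the sources available. Values under 16 were set to 16 and log2 was taken. Probe sets were kept where at least 3 of 6 arrays reached 16, and each gene was represented by its brightest kept probe set. Of 45101 probe sets, 34945 carried 1 symbol in the platform annotation, 932 several and 9160 none, and 64 were array controls, which were left out. Of the first, 34741 were matched by Entrez identifier to RefSeq (GRCm38.p6). A further probe set shared by Sec61b and Gm10320 was left out. Controls 2 and 3 were averaged and counted as 1 sample. The groups were compared with lmFit and eBayes of limma 3.58.1 in R 4.3.3, with Benjamini-Hochberg adjustment at 0.05, and the fit was tested on simulated data. The small number of arrays limits the precision.

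The genes and lists were chosen with earlier results of these data known. All 33 genes are named. For each other list that is no marker list, up to 4 genes past the threshold with the smallest p are named, or the gene with the smallest p where none passed. Alternatives covered replicates, blocks, fit options, filter, floor, scaling, choice of probe sets, array weights, sex class and each array left out. Those for the single probe sets were chosen after seeing the data. The named gene of the sex-linked list was Kdm5d (difference -0.94, limma adjusted p = 0.435).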

Additional observations from a re-analysis of the deposited data

How the results depend on the processing

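With 1 probe set or mean per gene, no gene of the list was called higher under any tested alternative. The count called lower was 0 in the main analysis and 2 with controls 2 and 3 as separate replicates (Dnajb9 and Sel1l). It was 1, Dnajb9, with the replicate block, with a variance trend, with robust eBayes, with a filter at 64, with the mean of all kept probe sets and with array weights. Leaving out 1 array or the merged controls at a time gave 0 to 1, with Dnajb9 called without replacement 1. Replicate numbers did not pair the samples (correlations of deviations -0.02, -0.00 and -0.06). The replicate block gave 1010 genes higher and 1109 lower over the whole table, against 590 and 601 without it. Separate controls gave 1127 and 1224, no filter 73 and 91, a floor of 32 gave 144 and 148, and array weights 899 and 925. The variance trend gave 621 and 631, robust eBayes 622 and 628, a filter at 64 gave 654 and 648, and the mean of kept probe sets 556 and 573. No floor gave 392 lower. Scaling to the array medians gave 451 higher and 386 lower, and the female class alone 0 and 0. With 1 sample left out (the merged controls count as 1), the counts ran from 3 to 838 higher and from 1 to 836 lower. The median difference of the list, 0.01, was -0.077 with array weights, 0.099 within the female class and -0.15 to 0.081 with 1 sample left out. Called probe sets of the list numbered 0 of 76 in the main analysis, where 4.04% of all kept probe sets passed. They numbered 2 with separate controls (Dnajb9 lower, Ssr1 higher) and 3 with the replicate block (these and Sec61a1, higher). With the trend 1 was called (Ssr1), and with a replacement sample left out 0 to 1 (Sec61a1, without replacement 1). Under these alternatives the share over all probe sets is not given, so these counts have no background beside them. Of the 7 other ER and heat shock genes that passed, all 7 were lost within the female class, Pdia5 with quantile normalization and with no floor, and Hspa1b with unsuffixed probe sets. Over 23 alternatives 14 of the 33 genes kept the sign of their difference and 19 did not, and none was called with the other sign. The causes of these shifts were not tested. Genes near the floor have only a bound, and 2 control samples limit every error given.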
